A study of Mus musculus with 10 samples.

Results

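The genes described here are 10 receptors for neuropeptides: *Npsr1*, *Npffr1*, *Npffr2*, *Gpr83*, *Npy1r*, *Npy2r*, *Npy5r*, *Oxtr*, *Avpr1a* and *Galr1*. They were picked by symbol, and all 10 are among the 33502 gene symbols counted in 20503 nuclei from the mouse paraventricular thalamus (PVT) and the tissue around it. Nuclei were taken from punches of the PVT of C57BL/6J mice aged 12 weeks, with 4 mice pooled per sample, and no treatment is named. Of the 10 libraries, 6 are titled as female biol reps and 4 as biol reps with no sex given (listed as male in the deposited metadata of each nucleus). The female libraries held 1049 to 1615 nuclei and 5119927 to 12891409 unique molecular identifiers (UMIs, each standing for a captured RNA molecule), and the other 4 held 875 to 7213 nuclei and 7568267 to 55956635 UMIs. Sex, depth and processing cannot be told apart between these sets of libraries. Because each library pools several mice, the spread between libraries is that between pools, and what any single animal contributed is not known.

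All 10 are G protein-coupled receptors, which pass the binding of a peptide outside the cell to G proteins inside it. Receptors of the Gq and Gs classes raise calcium or cyclic AMP and tend to excite neurons, whereas those of the Gi/o class lower cyclic AMP, open inward-rectifier potassium channels and tend to inhibit them. The PVT is a midline thalamic nucleus known for its part in arousal, motivation and the response to stress, and it receives dense peptide-containing fibres from the hypothalamus and brainstem. *Npsr1* encodes the receptor for neuropeptide S, a peptide that promotes wakefulness and lowers anxiety-like behaviour in rodents. *Npffr1* and *Npffr2* encode the receptors for RF-amide peptides such as neuropeptide FF, and *Gpr83* a receptor for a peptide cut from proSAAS. *Npy1r*, *Npy2r* and *Npy5r* encode receptors for neuropeptide Y, *Galr1* a receptor for galanin, and *Oxtr* and *Avpr1a* the receptors for oxytocin and for vasopressin.

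The promoters of *Npsr1*, *Gpr83* and *Npffr1* are shown because these 3 genes had their highest levels in PVT subtypes, with *Npsr1* and *Gpr83* highest in the same subtype and *Npffr1* in another. Each is a RefSeq promoter (GRCm38.p6) of 250 bases before and 50 bases after the transcript start that the promoter table uses, which for *Npsr1* and *Gpr83* is not the outermost start of the annotated gene. They lie at chr9:24097768-24098067 on the plus strand (*Npsr1*), chr9:14859960-14860259 on the plus strand (*Gpr83*) and chr10:61595045-61595344 on the plus strand (*Npffr1*). Capitals mark the 3 motifs searched on both strands, which were the E-box CACGTG, the cyclic AMP response half-site TGACG (seen as CGTCA where it lies on the other strand) and the TATA box TATAAA.
Npsr1: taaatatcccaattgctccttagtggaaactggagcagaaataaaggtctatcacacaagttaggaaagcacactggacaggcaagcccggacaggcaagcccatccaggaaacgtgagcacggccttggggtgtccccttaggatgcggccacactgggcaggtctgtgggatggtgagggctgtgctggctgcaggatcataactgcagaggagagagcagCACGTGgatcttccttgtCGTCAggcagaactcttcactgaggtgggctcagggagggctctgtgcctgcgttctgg
Gpr83: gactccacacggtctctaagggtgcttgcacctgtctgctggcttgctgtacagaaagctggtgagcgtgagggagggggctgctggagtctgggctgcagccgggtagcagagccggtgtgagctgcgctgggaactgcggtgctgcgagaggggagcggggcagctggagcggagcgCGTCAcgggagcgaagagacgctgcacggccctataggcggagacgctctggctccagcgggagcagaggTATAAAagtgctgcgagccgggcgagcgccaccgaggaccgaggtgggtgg
Npffr1: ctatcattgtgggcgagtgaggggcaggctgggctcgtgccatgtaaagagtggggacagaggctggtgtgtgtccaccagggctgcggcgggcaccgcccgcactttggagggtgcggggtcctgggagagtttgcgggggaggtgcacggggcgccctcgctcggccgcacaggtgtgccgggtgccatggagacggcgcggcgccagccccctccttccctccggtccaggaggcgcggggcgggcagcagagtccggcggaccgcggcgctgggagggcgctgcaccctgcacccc
The *Npsr1* promoter held 1 CACGTG and 1 TGACG, the *Gpr83* promoter 1 TGACG and 1 TATAAA, and the *Npffr1* promoter none of the 3. CACGTG was found in 7.24% of the 27025 promoters of the same length, TGACG in 21.0% and TATAAA in 14.2%, and the matches are given as a description. No annotated gene overlaps any of the 10 receptor genes. *Npy5r* and *Npy1r* are neighbours on chromosome 8, 9054 bases apart on opposite strands.

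The receptors were first compared across the 8 cell types that the authors named in the deposited metadata, to see which cells carried them. UMIs were summed per library and cell type where at least 10 nuclei were present, and a level is given as UMIs per 1000000 UMIs of that sum (CPM, mean ± SD over libraries). With edgeR's quasi-likelihood test, which had the library as a block and Benjamini-Hochberg adjustment over all genes, each type was compared with the average of the remaining ones. Calls of higher required a log2 fold change above 0.5 together with an adjusted p below 0.05, and calls of lower one below -0.5. Where libraries are counted as higher, the class exceeded the average of the remaining classes in that library. Neurons numbered 10410, astrocytes 5302, oligodendrocytes 2462, microglia 993, oligodendrocyte precursors (OPCs) 473, ependymal cells 469, endothelial cells 215 and fibroblasts 179. Each deposited type was highest in its own marker genes. *Npy2r* alone of the 10 passed the filter on low counts here, and 87.8% of the genes that passed it were called higher in at least 1 type. The other 9 are therefore given from a fit without the filter. The filter can pass a sparse gene through the 1 type where it is high. For *Npy2r* that type was ependymal cells, so its passing and its call there are not independent. Standard errors in fits without the filter were smaller, for example 0.10 against 0.20 for the same contrast of *Npsr1* in PVT neurons, so the adjusted p-values of these sparse genes should be read with their UMI counts.

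All 10 receptors were called higher in neurons in the fit without the filter, where 36.8% of all genes were. Between 74.3% (*Npy2r*) and 97.1% (*Npsr1*) of a receptor's UMIs came from neurons, which held 79.5% of all UMIs. For *Npsr1*, the 10 libraries ranged from 16.8 to 45.4 CPM in neurons with a median of 26.9 (27.6 ± 10.4), and the log2 fold change was 3.58 (SE 0.20, adjusted p = 1.6e-40), with neurons above the average of the remaining types in 10 of 10 libraries. *Galr1* lay between 17.1 and 27.4 CPM with a median of 22.2 (22.9 ± 3.42; log2 fold change 2.95, SE 0.19, adjusted p = 6.5e-34). Single libraries of small cell types reached or passed the neuronal value, as for *Npsr1* in OPCs (up to 58.0 CPM) and *Galr1* in fibroblasts (up to 43.2 CPM). *Npffr1* (4.91 ± 1.54 CPM, log2 fold change 2.36), *Gpr83* (4.47 ± 1.46 CPM, 2.50) and *Npy5r* (3.4 ± 1.34 CPM, 3.70) were also higher in 10 of 10 libraries. *Npffr2* (32 UMIs in all nuclei) and *Avpr1a* (87 UMIs) were at the edge of detection, and their calls in neurons were lost in the 4 biol rep libraries alone and in the 6 female libraries alone.

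*Npy2r*, a receptor often placed on the terminals of neuropeptide Y neurons, had its highest level outside neurons. In ependymal cells, the ciliated cells that line the ventricle, it reached 117, 95.2, 69.5 and 59.8 CPM in the biol rep libraries, and between 39.5 and 66.1 CPM in the 5 female libraries with enough ependymal nuclei. In neurons the 10 libraries lay between 2.48 and 6.62 CPM. The ranges of ependymal cells and neurons did not overlap, and ependymal cells exceeded the average of the remaining types in 9 of 9 libraries (67.9 ± 24.3 CPM; log2 fold change 5.61, SE 0.28, adjusted p = 5.9e-28). A UMI of *Npy2r* was present in 101 of 469 ependymal nuclei. The call held in the fit without the filter and in each of the 10 fits that left out 1 library (log2 fold change 5.44 to 6.01 in the latter). Neurons were also called higher for *Npy2r* (log2 fold change 1.55, SE 0.39, adjusted p = 0.00032), but exceeded the average of the remaining types, which includes the ependymal level, in 2 of 10 libraries.

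**Figure D1:**
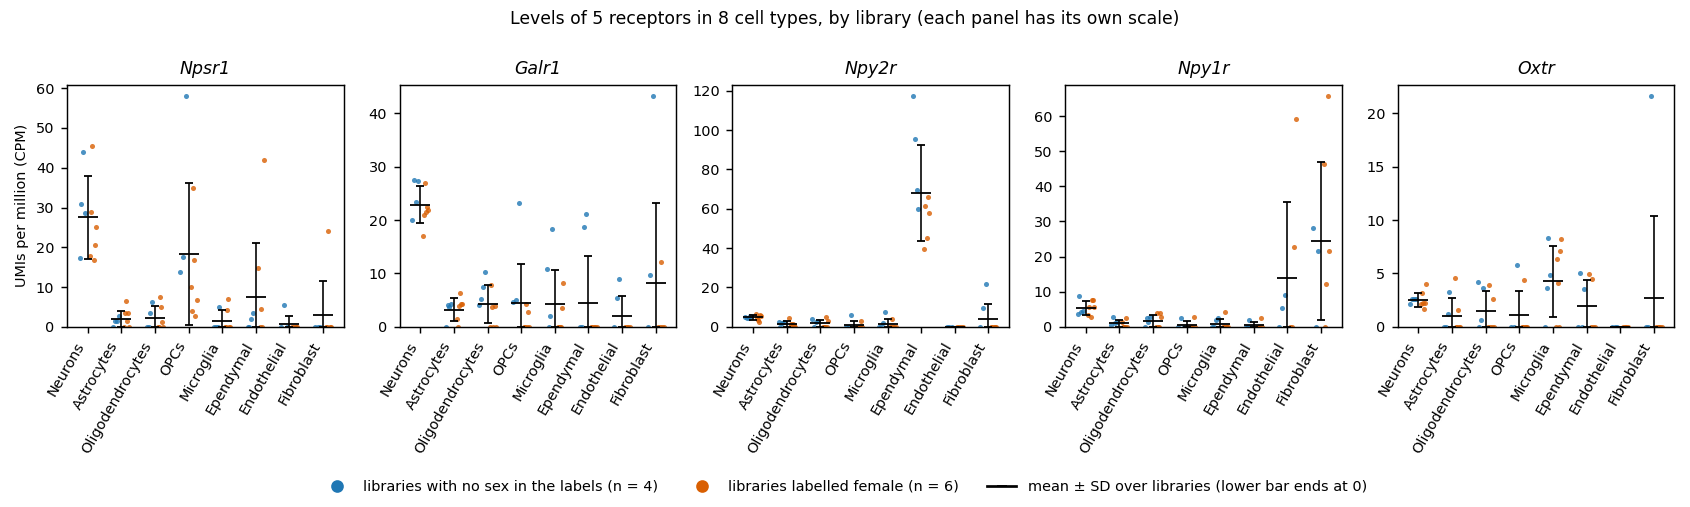
Levels of *Npsr1*, *Galr1*, *Npy2r*, *Npy1r* and *Oxtr* (in CPM, each panel on its own scale) in the 8 deposited cell types; each point is 1 library, and bars are the mean ± SD over libraries. *Npy2r* in ependymal cells lies between 39.5 and 117 CPM, above every neuronal value, while the fibroblast and endothelial points of *Npy1r* spread from 0 to 65.7 CPM.

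Smaller non-neuronal levels rested on few molecules. *Npsr1* in OPCs was called higher (18.3 ± 17.7 CPM, range 2.75 to 58.0, n = 9; log2 fold change 2.12, SE 0.40, adjusted p = 5.9e-06), from 36 UMIs in 14 nuclei. Of these UMIs 61.1% were in 3 nuclei. The neuronal marker *Rbfox3* was at 31.9 CPM in OPCs and 31.3 CPM in oligodendrocytes (all libraries pooled), and *Npsr1* at 2.33 ± 2.95 CPM in oligodendrocytes. *Npy1r* was called higher in fibroblasts (24.4 ± 22.5 CPM, n = 8; log2 fold change 2.68, SE 0.61, adjusted p = 0.00086) from 9 UMIs, and in endothelial cells (13.8 ± 21.7 CPM, n = 7; 2.04, SE 0.61, adjusted p = 0.013) from 8 UMIs. *Oxtr* was called higher in microglia (4.27 ± 3.33 CPM, n = 10; log2 fold change 1.93, SE 0.62, adjusted p = 0.011) from 14 UMIs. In each of these the libraries overlapped with those of other types, and 2 of 8, 3 of 7 and 3 of 10 libraries had no UMI of *Npy1r* in fibroblasts, of *Npy1r* in endothelial cells and of *Oxtr* in microglia. The *Npy1r* calls were lost in the biol rep libraries alone, and the *Oxtr* call in both sets of libraries taken alone. *Rbfox3* stood at 45.4, 26.1 and 38.9 CPM in fibroblasts, endothelial cells and microglia, against 255 CPM in neurons, and the part of neuronal RNA in the *Npsr1*, *Npy1r* and *Oxtr* counts was not tested.

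Neurons with more than 1000 genes were then grouped, to find where among the thalamic and neighbouring neurons each receptor was carried. They were clustered anew without the receptor genes, so that no receptor placed a nucleus, and clusters were named from marker genes as PVT-like (led by *C1ql3*), mediodorsal thalamus-like (MD, *Adarb2*), intermediodorsal thalamus-like (IMD, *Lpl*), BSTpr-like (GABAergic neurons, *Gad2*) and habenula-like (Hb, *Nwd2*). The names PVT, MD, IMD, BSTpr and Hb below stand for these clusters, which are rebuilt and can differ from those of the study. They held 5761, 2006, 699, 948 and 893 nuclei. Because the groups are clusters of the same nuclei, the tests describe how a gene's level differed between clusters over the libraries. *Npsr1*, *Npy1r* and *Galr1* passed the filter, and all 3 were called higher in at least 1 group, as were 45.1% of the genes that passed it. The filter can pass a sparse gene through the 1 group where it is high, so this count is partly set by it. In the fit without the filter, 7 of the 10 receptors were called higher in PVT neurons (*Npsr1*, *Npffr1*, *Gpr83*, *Npy2r*, *Oxtr*, *Avpr1a* and *Galr1*), against 9.74% of all genes, while *Npy1r* was called lower. In BSTpr neurons 6 were called higher (background 8.84%). In Hb neurons 7 were called lower (background 11.8%), and in MD neurons 5 were called lower (background 9.2%).

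*Npsr1*, the neuropeptide S receptor that couples to Gq and Gs, had 3478 of its 4054 UMIs (85.8%) in PVT neurons. Its level in PVT neurons was 28.1, 55.4, 62.9 and 40.4 CPM in the biol rep libraries and 33.4, 50.1, 74.4, 30.8, 37.6 and 42.0 CPM in the female libraries. Each of these lay above the Hb, MD and IMD levels of any library, which ended at 26.7, 11.2 and 7.86 CPM (45.5 ± 14.99 CPM in PVT; log2 fold change 2.55, SE 0.20, adjusted p = 3.1e-16, higher in 10 of 10 libraries). BSTpr neurons came next, with 0 to 45.1 CPM and a median of 21.2 (21.5 ± 12.5; log2 fold change 1.13, SE 0.32, adjusted p = 0.0038, higher in 9 of 10). They stood below PVT neurons by 1.14 on the log2 scale (SE 0.28, adjusted p = 0.001). Hb (3.9 ± 8.18 CPM), MD (3.31 ± 4.11) and IMD (2.57 ± 3.07) followed. Hb did not differ from IMD beyond the spread (adjusted p = 0.46), nor IMD from MD (adjusted p = 0.90), and Hb against MD is not given. The BSTpr call was lost in the biol rep libraries alone (log2 fold change 0.64, adjusted p = 0.27).

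*Galr1*, whose product couples to Gi/o, varied little between libraries in PVT neurons. Its libraries lay between 27.4 and 35.1 CPM with a median of 31.6 (31.4 ± 2.29), and none of the 10 fell to the level of the BSTpr or Hb neurons (at most 20.7 and 26.9 CPM), while single libraries of MD and IMD neurons reached 32.0 and 39.3 CPM. PVT neurons exceeded the average of the remaining groups in 10 of 10 libraries, although IMD neurons of 1 library (biol rep 2) were above its PVT neurons (log2 fold change 1.65, SE 0.15, adjusted p = 1.1e-13). MD neurons had 17.4 ± 7.45 CPM, with 7.90 to 32.0 CPM over the libraries, and were below PVT neurons by 0.69 on the log2 scale (SE 0.16, adjusted p = 0.00022). IMD (14.9 ± 10.1 CPM) did not differ from MD beyond the spread (adjusted p = 0.32), nor BSTpr (10.6 ± 7.01) from IMD (adjusted p = 0.15), and Hb was lowest (6.13 ± 8.60 CPM; log2 fold change -2.31, SE 0.35, adjusted p = 8.5e-08). The place of MD neurons in this order rests on a cluster led by *Rxfp1*, described below. Without that cluster MD neurons had 3.05 ± 3.24 CPM, below the means of IMD and Hb neurons.

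*Npy1r*, a Gi/o-coupled receptor for neuropeptide Y, ran the other way and was lowest in PVT neurons. In MD neurons it was 10.6, 19.0, 9.30 and 10.2 CPM in the biol rep libraries and between 8.58 and 19.5 CPM in the female ones (13.02 ± 4.28). In PVT neurons no library passed 4.68 CPM and 2 had no UMI (1.15 ± 1.38), so the ranges of MD and PVT neurons did not overlap. MD neurons were called higher in the test against the other groups (log2 fold change 1.56, SE 0.18, adjusted p = 1.7e-10; 10 of 10 libraries) and PVT neurons lower (-2.41, SE 0.23, adjusted p = 6.7e-13). MD exceeded PVT by 3.18 on the log2 scale (SE 0.22, adjusted p = 6.7e-18). BSTpr (10.9 ± 8.42 CPM; log2 fold change 1.08, SE 0.26, adjusted p = 0.00069) and IMD neurons (7.93 ± 4.21 CPM; 0.81, SE 0.26, adjusted p = 0.013) were called higher too, and neither differed from MD beyond the spread (adjusted p = 0.22 and 0.091).

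The other receptors for neuropeptide Y had patterns of their own. *Npy5r*, which like *Npy1r* couples to Gi/o, was highest in BSTpr neurons, with 4.24 to 32.2 CPM and a median of 14.4 (16.4 ± 9.78; log2 fold change 2.70, SE 0.24, adjusted p = 1.4e-28 without the filter, higher in 10 of 10 libraries). IMD (3.88 ± 3.5 CPM), PVT (2.45 ± 1.18) and MD (2.09 ± 0.752) had lower levels. *Npy2r* was called higher in both PVT (7.37 ± 2.36 CPM; log2 fold change 2.19, SE 0.19, adjusted p = 4.4e-28) and BSTpr neurons (7.52 ± 3.86 CPM; 1.94, SE 0.30, adjusted p = 3.2e-09). Their difference was 0.20 on the log2 scale and lay within the spread (adjusted p = 0.73). In IMD and MD neurons *Npy2r* stood at 1.54 ± 1.61 and 0.687 ± 0.748 CPM. BSTpr neurons had all 3 neuropeptide Y receptors among their called genes, but none of these calls held when nuclei were assigned by single markers, which left 305 BSTpr nuclei in 8 libraries (*Npy1r* -0.67, *Npy2r* 0.088 and *Npy5r* 1.99, the last at 3.05 ± 3.88 CPM, adjusted p = 0.15).

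Of the RF-amide and proSAAS receptors, *Npffr1* and *Gpr83* were both called higher in BSTpr and PVT neurons without the filter. *Npffr1* had 10.98 ± 9.93 CPM in BSTpr (0 to 26.2; log2 fold change 2.64, SE 0.25, adjusted p = 2e-24, 8 of 10 libraries) and 6.83 ± 1.68 CPM in PVT neurons (4.40 to 9.18; 1.85, SE 0.19, adjusted p = 9.2e-22, 9 of 10). BSTpr neurons had the higher mean and the wider spread. The fitted difference from PVT was 0.63 on the log2 scale (adjusted p = 0.021), but BSTpr lay below PVT in 5 of 10 libraries. *Gpr83* had 12.0 ± 9.82 CPM in BSTpr neurons (1.75 to 28.7; log2 fold change 1.62, SE 0.25, adjusted p = 1.2e-09), 6.28 ± 3.45 in IMD (1.22, SE 0.24, adjusted p = 1.1e-05) and 5.31 ± 1.82 in PVT neurons (0.60, SE 0.17, adjusted p = 0.0033). Its BSTpr call was lost in 4 of 7 alternatives, among them the biol rep libraries alone (log2 fold change 0.86, adjusted p = 0.094). The PVT call of *Gpr83* was lost in 2 of 5 alternatives, with a lowest log2 fold change of 0.48. In MD neurons *Gpr83* was called lower (0.634 ± 0.606 CPM; log2 fold change -2.44) and exceeded the average of the remaining groups in 0 of 10 libraries. *Npffr2* had 7 UMIs in BSTpr and 17 in PVT neurons and was called in no group (BSTpr log2 fold change 1.88, adjusted p = 0.086).

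*Oxtr* and *Avpr1a*, the Gq-coupled receptors for oxytocin and vasopressin, were both called higher in PVT neurons and in no other group. *Oxtr* ranged from 1.65 to 5.88 CPM with a median of 3.74 (3.98 ± 1.15; log2 fold change 1.90, SE 0.24, adjusted p = 2.3e-14), and no other group's mean passed 1.28 CPM. *Avpr1a* ranged from 0.420 to 1.64 CPM (1.02 ± 0.492, from 59 UMIs; log2 fold change 1.39, SE 0.45, adjusted p = 0.0098). Both exceeded the average of the remaining groups in 10 of 10 libraries. *Oxtr* was higher in PVT neurons than in each other group taken alone (adjusted p at most 0.0059). *Avpr1a* was higher than in MD (adjusted p = 0.0041) and Hb neurons (0.048), but did not differ beyond the spread from BSTpr (adjusted p = 0.88) or IMD neurons (0.58), which had 6 and 4 UMIs of it. The *Avpr1a* call in PVT neurons was lost in the biol rep libraries alone (log2 fold change 1.14, adjusted p = 0.20) and with single markers (1.90, adjusted p = 0.27).

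**Figure D2:**
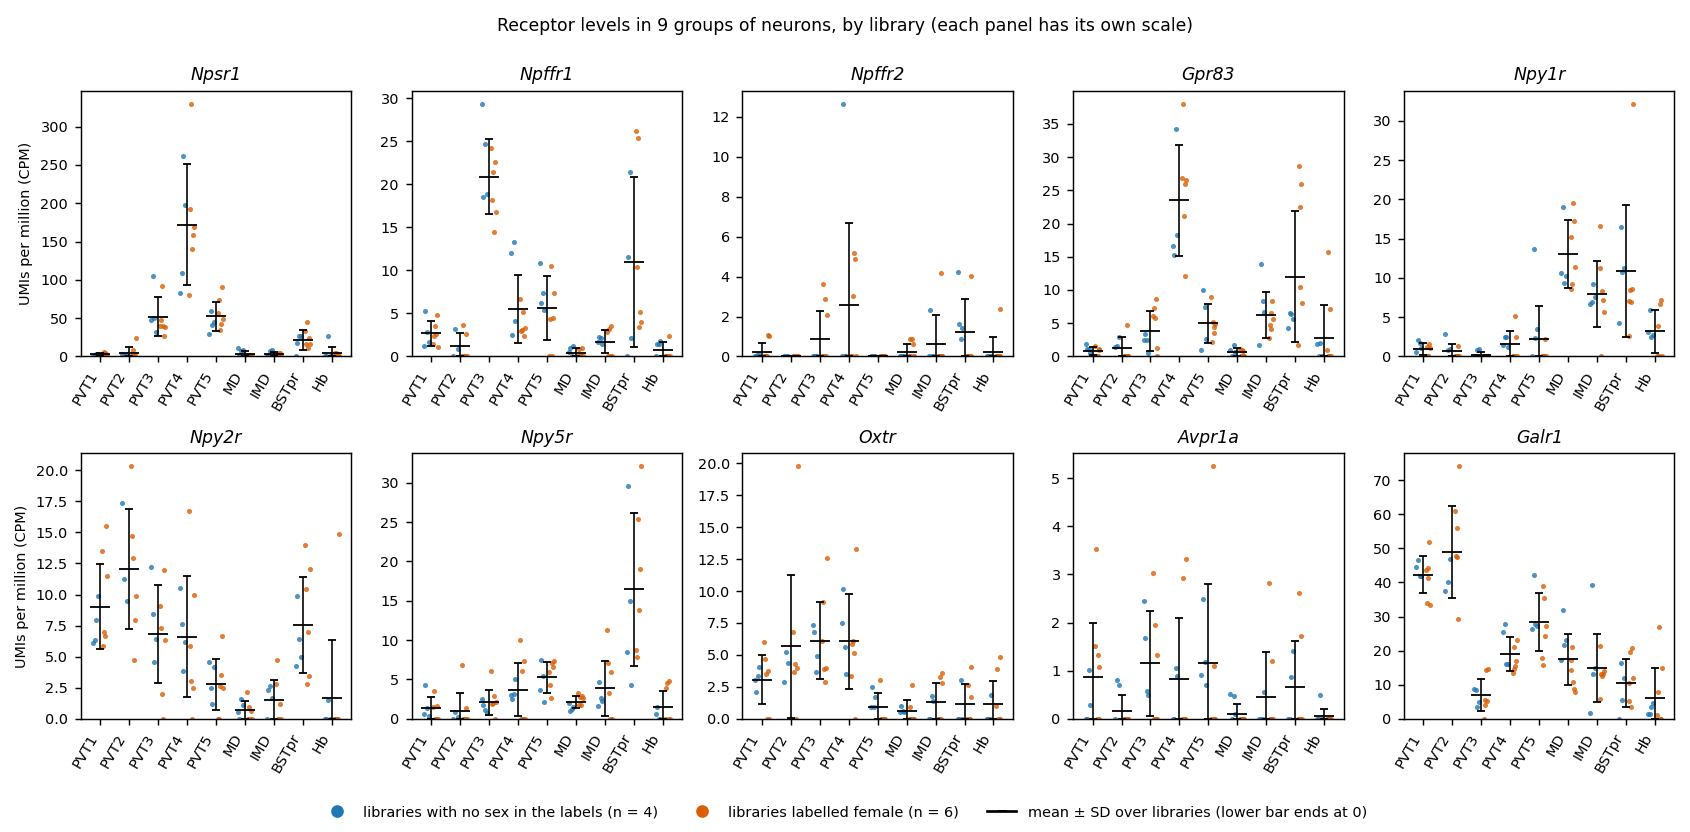
Levels of the 10 receptors (in CPM, each panel on its own scale) in 5 PVT subtypes and in MD, IMD, BSTpr and Hb neurons; each point is 1 library, blue without a sex in the labels (n = 4) and orange labelled female (n = 6), and bars are the mean ± SD. *Npsr1* and *Gpr83* peak in PVT4, *Npffr1* in PVT3, *Galr1* in PVT1 and PVT2, *Npy5r* in BSTpr and *Npy1r* in MD neurons.

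PVT neurons were divided further into 5 subtypes, to ask which of them carried which receptor. Clusters made without the receptor genes were named from the markers of the study's subtypes as PVT1 (2120 nuclei), PVT2 (692, led by *Col12a1*), PVT3 (1031, *Cadps2*), PVT4 (770, *Bmper*) and PVT5 (975, named from markers such as *Drd3*). A further cluster of 173 nuclei, led by activity-regulated genes such as *Fosb* and *Npas4*, stayed unnamed and is part of the PVT neurons but of no subtype. The study had itself used *Npffr1* as a marker of PVT3 and *Npsr1* as a marker of PVT4, picked from its clusters of these nuclei. The highest subtypes of these receptors were thus known beforehand, and their tests describe the levels and are no independent support. *Npsr1*, *Npffr1*, *Gpr83* and *Galr1* passed the filter. All 4 were called higher in at least 1 subtype, as were 16.9% of the genes that passed it. The filter can pass a sparse gene through the 1 subtype where it is high, as with *Gpr83* and *Npffr1*. The count of 4 is therefore partly set by the filter and is no result about the receptors. Without the filter 9 of the 10 receptors were called higher in at least 1 subtype, where 14.0% of all genes were, and *Avpr1a* in none. In PVT4 there were 4 of these calls (*Npsr1*, *Npffr2*, *Gpr83* and *Npy5r*; background 3.99%), 3 in PVT3 (background 6.08%) and in PVT5 (2.09%), and 2 in PVT1 (2.6%) and in PVT2 (3.76%).

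PVT4 neurons had the highest levels of *Npsr1* and *Gpr83*. *Npsr1* in PVT4 was 82.7, 109, 261 and 198 CPM in the biol rep libraries and 80.4, 193, 330, 140, 158 and 169 CPM in the female libraries. The libraries varied widely, yet PVT4 exceeded the average of the remaining subtypes in all 10 (172 ± 78.6 CPM; log2 fold change 3.93, SE 0.13, adjusted p = 6.8e-45). PVT5 (52.3 ± 18.6 CPM, 29.9 to 90.6) and PVT3 (51.8 ± 25.6 CPM, 26.6 to 105) were called higher as well, with log2 fold changes of 1.59 (SE 0.17) and 1.4 (SE 0.17). They did not differ from each other beyond the spread (log2 difference -0.15, SE 0.16, adjusted p = 0.52), and PVT4 exceeded PVT5 by 1.88 (SE 0.13, adjusted p = 6.3e-22). PVT1 (2.59 ± 1.73 CPM) and PVT2 (4.58 ± 8.05 CPM, n = 9) were called lower, by 3.35 and 3.58 on the log2 scale, and did not differ from each other (adjusted p = 0.92). In PVT2, 1 library reached 24.7 CPM, while the median was 1.33.

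*Gpr83* in PVT4 was 16.5, 15.2, 34.2 and 18.2 CPM in the biol rep libraries and between 12.2 and 38.0 CPM in the female libraries. No other subtype passed 9.93 CPM in any library, so that PVT4 did not overlap with the rest (23.5 ± 8.36 CPM; log2 fold change 3.37, SE 0.19, adjusted p = 7.3e-28, higher in 10 of 10). PVT5 had 5.01 ± 2.96 CPM (log2 fold change 0.57, adjusted p = 0.087) and lay below PVT4 by 2.24 on the log2 scale (SE 0.22, adjusted p = 1.4e-14). PVT3 had 3.8 ± 2.98 CPM, PVT2 1.20 ± 1.71 and PVT1 0.824 ± 0.654, the last called lower (log2 fold change -2.38, SE 0.31, adjusted p = 4e-10).

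*Npffr1*, which the study used as a marker of PVT3, was instead highest in PVT3 neurons. There it was 29.4, 18.6, 24.6 and 18.9 CPM in the biol rep libraries and 24.2, 18.2, 21.4, 14.4, 22.6 and 16.8 CPM in the female libraries. The lowest of these, 14.4, was above the highest value of any other subtype, 13.2 in PVT4 (20.9 ± 4.41 CPM; log2 fold change 2.47, SE 0.16, adjusted p = 1.4e-24). PVT5 (5.65 ± 3.72 CPM) and PVT4 (5.55 ± 3.97 CPM) did not differ from each other (adjusted p = 0.75), and PVT3 exceeded PVT4 by 1.56 on the log2 scale (SE 0.21, adjusted p = 1.4e-09). PVT1 (2.70 ± 1.47 CPM) and PVT2 (1.16 ± 1.56 CPM) were called lower (log2 fold changes -1.33 and -2.02). Its relative *Npffr2* had 9 UMIs in PVT4, none of them in 6 libraries, and its call there (log2 fold change 2.59, SE 0.75, adjusted p = 0.0068) was lost in both sets of libraries taken alone.

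*Galr1* was highest in PVT1 and PVT2, the subtypes where *Npsr1* was lowest. In PVT2 it ranged from 29.2 to 74.2 CPM with a median of 47.5 (49.0 ± 13.4, n = 9; log2 fold change 1.32, SE 0.11, adjusted p = 5.2e-18), and in PVT1 from 33.4 to 51.9 CPM with a median of 42.8 (42.3 ± 5.48; 1.17, SE 0.09, adjusted p = 4.4e-21). These subtypes did not differ from each other beyond the spread (log2 difference -0.12, SE 0.11, adjusted p = 0.64). PVT5 had 28.3 ± 8.48 CPM and PVT4 19.1 ± 5.03, and PVT3 was lowest with 0 to 14.7 CPM (6.91 ± 4.72; log2 fold change -2.54, SE 0.16, adjusted p = 3.3e-26, higher in 0 of 10 libraries). PVT3 lay below PVT4 by 1.70 on the log2 scale (SE 0.22, adjusted p = 3.2e-10), and its range did not overlap with those of PVT1, PVT2 and PVT5.

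**Figure D3:**
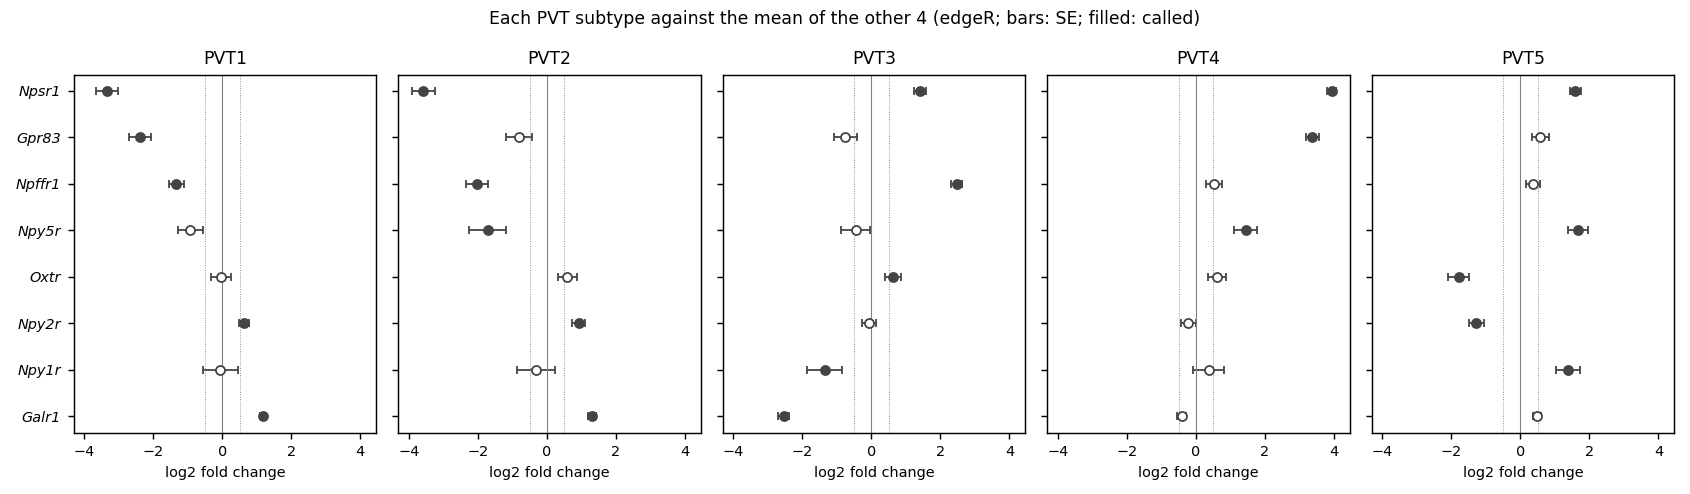
Log2 fold change of 8 receptors in each PVT subtype against the mean of the other subtypes, with bars of 1 SE; filled points passed the thresholds, and receptors that failed the filter are from the fit without it. *Npsr1* and *Gpr83* lie farthest to the right in PVT4 (3.93 and 3.37) and *Npffr1* in PVT3 (2.47), where *Galr1* lies farthest to the left (-2.54).

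The remaining receptors had lower levels and smaller differences between subtypes, from the fit without the filter. *Npy2r* was called higher in PVT2 (12.1 ± 4.84 CPM; log2 fold change 0.92, SE 0.19, adjusted p = 2e-05, lost in the female libraries alone at 0.73) and PVT1 (9.03 ± 3.43 CPM; 0.63, SE 0.14, adjusted p = 0.0002), as *Galr1* was, and lower in PVT5 (2.76 ± 2.07 CPM; -1.28, SE 0.21, adjusted p = 7.2e-08). *Npy5r* was called higher in PVT5 (5.27 ± 1.99 CPM; 1.66, SE 0.29, adjusted p = 4.4e-07) and PVT4 (3.71 ± 3.39 CPM; 1.44, SE 0.33, adjusted p = 0.00027), which did not differ from each other (adjusted p = 0.89). Both calls were lost in the female libraries alone (1.61, adjusted p = 0.067, and 0.86, adjusted p = 0.70). The subtypes highest in *Npy2r* were not those highest in *Npy5r*. *Oxtr* was called lower in PVT5 (0.906 ± 1.14 CPM; -1.80, SE 0.30, adjusted p = 1.1e-07, higher in 0 of 10 libraries). Its means in PVT3, PVT4 and PVT2 were 6.12, 6.04 and 5.67 CPM, and the call of PVT3 as higher (0.63, SE 0.23, adjusted p = 0.041) was just past the threshold and was lost in 5 of 6 alternatives. *Npy1r* in PVT5 (2.17 ± 4.24 CPM; log2 fold change 1.37, SE 0.35, adjusted p = 0.0018) had no UMI in 6 of 10 libraries, and its call was lost in the female libraries alone (0.31). *Avpr1a* had at most 1.16 CPM in any subtype.

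The UMIs of *Npsr1* were concentrated in few nuclei. In PVT4, 240 of 770 nuclei (31.2%) had a UMI of it, with a mean of 7.76 UMIs in those nuclei, and 66 nuclei had 10 or more. Nuclei with at least 5 UMIs gave 85.8% of the *Npsr1* UMIs of PVT4, 71.5% of those of PVT5 and 63.6% of those of PVT3, and the highest count in any nucleus was 49. In BSTpr neurons, where 67 of 948 nuclei had a UMI, the mean was 2.55, and nuclei with at least 5 UMIs gave 33.3%. *Gpr83* in PVT4 (162 nuclei, mean 1.38 UMIs) and *Npffr1* in PVT3 (190 nuclei, mean 1.36) were mostly seen as single UMIs. Between nuclei of PVT4 *Npsr1* thus ranged from no UMI to 41, and most PVT4 nuclei had none at this depth. The unnamed cluster of 173 PVT nuclei held 264 *Npsr1* UMIs in 26 nuclei, among them the nucleus with 49.

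**Figure D4:**
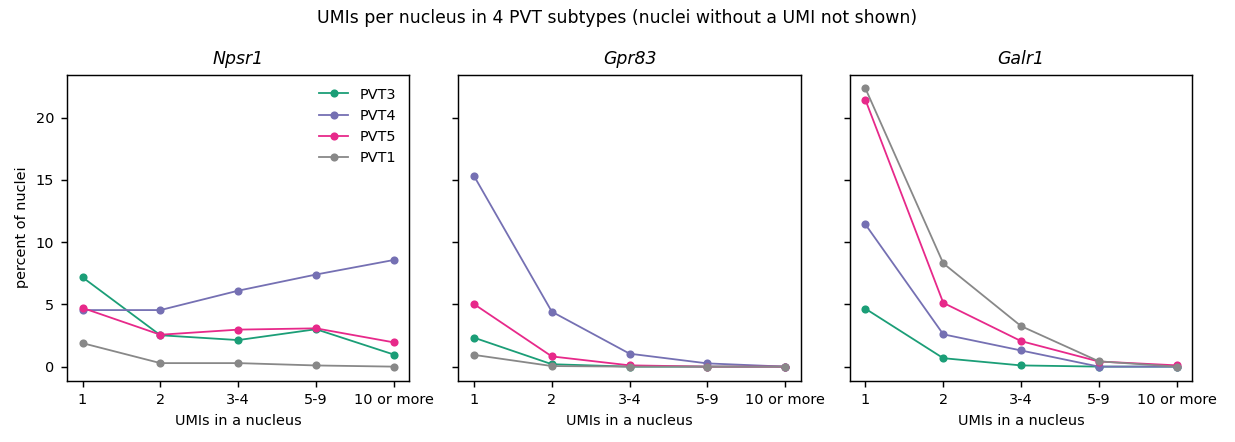
Percent of nuclei of PVT1, PVT3, PVT4 and PVT5 with 1, 2, 3 to 4, 5 to 9 and 10 or more UMIs of *Npsr1*, *Gpr83* and *Galr1*, all libraries pooled. In PVT4, 31.2% of nuclei had a UMI of *Npsr1* and 66 of 770 had 10 or more, whereas *Gpr83* averaged 1.38 UMIs in the nuclei that had any.

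To compare shares of nuclei at equal depth, each nucleus was thinned to 2000 UMIs and shallower ones were left out, which removed 9 of the PVT nuclei, 171 of 469 ependymal nuclei and 847 of 2462 oligodendrocytes. Oligodendrocytes, with a median of 2321 UMIs before thinning against 11853 in PVT neurons, served as a comparison. That they lack these receptors was assumed and not tested. *Npsr1* was then seen in 16.7% ± 5.81 of PVT4 nuclei, 7.42% ± 2.09 of PVT5, 6.89% ± 2.04 of PVT3 and 3.59% ± 2.02 of BSTpr nuclei, against 0.729% ± 1.28 of oligodendrocytes (SD over libraries). *Galr1* was seen in 8.55% ± 2.18 of PVT2 and 7.95% ± 0.970 of PVT1 nuclei, against 1.28% of PVT3 nuclei and 1.12% ± 1.49 of oligodendrocytes. The *Galr1* share of PVT3 was thus close to that of oligodendrocytes, while the levels before thinning were 6.91 and 4.27 CPM. The part of RNA from other cells in either count was not tested. *Npffr1* in PVT3 (4.00% ± 1.19), *Gpr83* in PVT4 (4.87% ± 2.03), *Npy5r* in BSTpr (3.37% ± 1.81) and *Npy2r* in ependymal nuclei (11.7% ± 3.48) were all above oligodendrocytes (0.147%, 0.124%, 0.155% and 0.201%). *Oxtr* was seen in 1.19% of PVT3 nuclei, against 0.415% of oligodendrocytes.

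Because *Npsr1*, *Gpr83* and *Npffr1* were all raised in PVT neurons, the nuclei that held UMIs of more than 1 of them were counted. This is a description, since nuclei of a library are not replicates and deeper nuclei show more genes. In PVT4, *Gpr83* was present in 30.4% of the nuclei with *Npsr1* and in 16.8% of the others, and *Npffr1* in 14.2% of the nuclei with *Npsr1* and in 1.89% of the others. *Galr1* was present in 6.67% of PVT4 nuclei with *Npsr1* and in 19.2% of those without. The nuclei with *Npsr1* were deeper (median 12877.5 against 10359 UMIs) than the others. In PVT3, *Npffr1* was present in 21.5% of the nuclei with *Npsr1* and in 17.9% of the others, so the pair was less uneven there. Over all PVT neurons, 105 nuclei had both *Npsr1* and *Gpr83*, where the product of their shares, taken within each library and within bins of nuclei of like depth, gives 34.7, and 87 had both *Npsr1* and *Galr1*, where the same product gives 178. These products leave out the subtypes, in which the receptors differ. Within PVT4, PVT5 and PVT3, *Npsr1* and *Gpr83* met in 73, 19 and 8 nuclei, against products of 56.4, 9.28 and 4.68. For *Npsr1* and *Galr1* these were 16, 33 and 10 nuclei, against 38.7, 42.9 and 9.35. In BSTpr neurons, 17 of 948 nuclei had both *Npy1r* and *Npy5r*, where the same product gives 7.86. For this pair PVT neurons had 9 such nuclei, against 3.11, and MD neurons, where *Npy1r* was highest, had 7, against 8.29.

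The neuron clusters that the authors deposited, named Neurons1 to Neurons8, were used as an alternative grouping, and these were made with the receptor genes among the counted genes. *Npsr1* was highest in Neurons4 (119 ± 49.4 CPM) and Neurons2 (78.0 ± 31.2 CPM), *Npffr1* in Neurons4 as well (22.9 ± 6.08 CPM) and *Gpr83* in Neurons2 (13.8 ± 6.74 CPM). *Galr1* was highest in Neurons1 (42.0 ± 4.30 CPM) and Neurons8 (38.5 ± 22.8 CPM), *Npy1r* in Neurons3 (17.7 ± 5.32 CPM) and *Npy5r* in Neurons5 (17.4 ± 10.8 CPM). *Npsr1* and *Npffr1* thus shared their highest cluster there, whereas the finer PVT subtypes set them apart.

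The MD neurons were made of 2 clusters, which differed in *Galr1*. They were singled out after their values were seen, so no test is given. The cluster led by *Rxfp1* (1214 nuclei) had *Adarb2*, the MD marker, at 487 CPM and *C1ql3*, the PVT marker, at 112 CPM, and the cluster led by *Fras1* and *Adarb2* (792 nuclei) had them at 2088 and 13.9 CPM. *Galr1* ranged from 15.6 to 66.2 CPM in the former (31.6 ± 14.5) and from 0 to 9.88 CPM in the latter (3.05 ± 3.24). The ranges did not overlap, and the *Rxfp1*-led cluster was higher in 10 of 10 libraries. *Npy1r* went the other way, with 7.76 ± 4.19 CPM in the *Rxfp1*-led and 18.7 ± 6.43 CPM in the *Adarb2*-led cluster, and was higher in the *Rxfp1*-led cluster in 1 of 10 libraries. The *Galr1* call in MD neurons (log2 fold change 0.79, SE 0.18, adjusted p = 0.00022) rests on the *Rxfp1*-led cluster, without which the value was -1.52, and it was 0.069 (adjusted p = 0.84) in the female libraries alone.

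**Figure D5:**
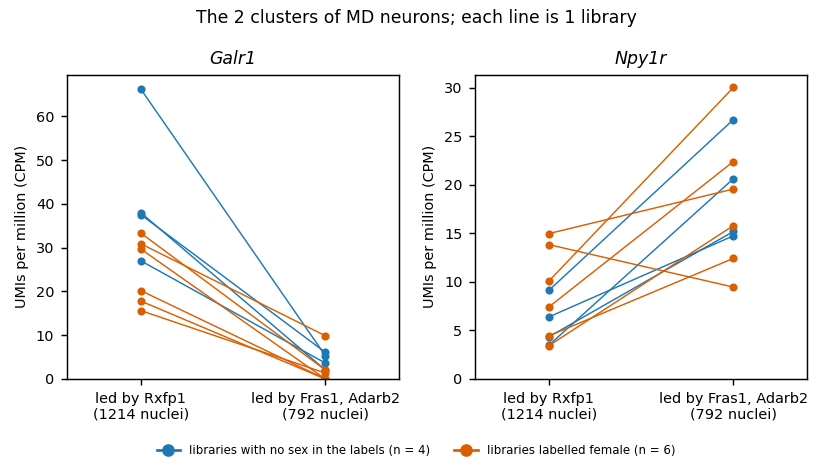
*Galr1* (left) and *Npy1r* (right) in the 2 clusters of MD neurons, in CPM, with a line for each of the 10 libraries. All 10 lines fall for *Galr1*, from between 15.6 and 66.2 CPM to at most 9.88 CPM, and 9 of the 10 rise for *Npy1r*.

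The peptides that bind these receptors were examined from a list of 13 genes. *Nps*, which encodes neuropeptide S, did not exceed 0.31 CPM in any cell type or group of neurons. *Gal*, which encodes galanin, was called higher in PVT4 (36.3 ± 21.2 CPM; log2 fold change 1.64, SE 0.15, adjusted p = 1.7e-16) and PVT3 (36.2 ± 19.1 CPM; 1.51, SE 0.14, adjusted p = 1.4e-16). It was called lower in PVT1 (4.10 CPM; -2.14) and PVT2 (8.42 CPM; -0.70), the subtypes where *Galr1* was called higher. *Pcsk1n*, which encodes proSAAS, the precursor of a *Gpr83* ligand, was called higher in PVT4 (499 ± 218 CPM; log2 fold change 0.97, adjusted p = 3.6e-30), PVT3 (407 ± 158 CPM; 0.61), BSTpr (476 ± 205 CPM; 1.20) and Hb neurons (354 ± 154 CPM; 0.65). It was called lower in MD (95.3 ± 27.8 CPM; -1.38), IMD (149 ± 67.3 CPM; -0.75) and PVT5 neurons (173 ± 57.3 CPM; -0.73), and no cell type was without it, the lowest being ependymal cells with 111 ± 75.1 CPM. *Npy* reached 10.2 ± 12.6 CPM in BSTpr neurons (0 to 37.9) and 14.5 ± 11.1 CPM in OPCs, and *Avp*, the vasopressin gene, 14.6 ± 33.3 CPM in BSTpr neurons (0 to 107), where the SD exceeds the mean. None of the 6 related receptor genes (*Npy4r*, *Npy6r*, *Avpr1b*, *Avpr2*, *Galr2* and *Galr3*) passed the filter in neurons.

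Genes of the G protein pathways behind these receptors were counted from 3 lists. In PVT neurons 1 of the 5 Gq genes that passed the filter was called higher (*Itpr1*, an IP3 receptor, log2 fold change 0.53), 1 of 8 Gs genes higher (*Adcy5*, 0.81) and 2 lower (*Adcy8*, -0.72, and *Gnal*, -0.88), and 2 of 9 Gi/o genes higher (*Gnai1*, 0.71, and *Kcnj5*, 2.15). The list medians were 0.19, 0.11 and 0.30, against -0.02 over all genes. In BSTpr neurons 1 Gq gene was called higher and 1 lower, 4 Gs genes higher and 1 lower, and 2 Gi/o genes higher and 1 lower. In MD neurons the counts were 2 and 0, 3 and 2, and 2 and 2. The medians of the Gq, Gs and Gi/o lists were 0.17, 0.35 and 0.23 in BSTpr neurons, against 0.04 over all genes. In MD neurons they were 0.43, 0.34 and 0.07, against -0.05. Most lists had genes called in both directions, while the Gq genes in PVT and MD neurons and the Gi/o genes in PVT neurons were called only higher. The lists are short and the share of all genes called in the same contrasts is not given, so the counts are a description.

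*Kcnj5*, a subunit of the G protein-gated potassium channel that Gi/o receptors open, was called in 4 of the 5 PVT subtypes. It was called higher in PVT3 (65.1 ± 10.1 CPM; log2 fold change 1.29) and PVT4 (63.5 ± 12.5 CPM; 1.12), and lower in PVT2 (-1.48) and PVT5 (-0.58). The other subunits went the other way, with *Kcnj3*, *Kcnj6* and *Kcnj9* called lower in PVT3 (-0.65, -0.68 and -0.99) and higher in PVT2 (0.53, 0.67 and 0.57). Of the adenylyl cyclases of the Gs list, *Adcy2* was called lower in PVT3 (-3.14) and PVT4 (-1.29) and higher in PVT5 (2.39) and also in PVT2. *Adcy1* was called higher in PVT1 and PVT2 and lower in PVT3, and *Adcy8* lower in PVT3 and higher in PVT5. Of the Gq list, *Itpr1* was called lower in PVT3 (-1.30) and *Plcb1* higher in PVT5 (0.51), and no Gq gene was called in PVT4. PVT2 went the other way for both, with *Itpr1* and *Plcb4* called higher and *Plcb1* lower.

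The genes whose pattern was most like that of a receptor were taken from the Pearson correlation of mean log2 CPM over 9 classes of neurons (the 5 PVT subtypes, MD, IMD, BSTpr and Hb), among 11053 genes, for the 7 receptors that reached 10 CPM in a class. The classes come from the same libraries, and high values arise readily when the top genes of so many are picked over 9 points. The values are therefore a description. Closest to *Npsr1* were *Gda* (r = 0.94), *Actn2* and *Aatk* (both 0.92). Closest to *Galr1* were *Gpcpd1* (0.96), *Khdrbs2* and *Pdia5* (both 0.95), to *Gpr83* *Eda* (0.96), *Rgl1* and *P3h3* (0.94 and 0.93), and to *Npffr1* *Dnttip2*, *Pygo1* and *Sp9* (0.98, 0.96 and 0.96). For *Npy1r* these were *Zfp938*, *Akr1b10* and *Abcb9* (0.95, 0.95 and 0.94), for *Npy2r* *9630013A20Rik*, *Acot9* and *Iqgap2* (0.98, 0.96 and 0.96), and for *Npy5r* *Vps39*, *Slc1a6* and *1700021F05Rik* (0.98, 0.95 and 0.92). A high correlation can go with small differences, as for *Vps39*, whose class means ran only from 25.6 to 31.1 CPM. Some of these genes were highest in another class than their receptor, as *Gda* was in PVT3.

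Between the 6 female and the 4 other libraries, PVT neurons were compared for the level of each receptor. None of the 6 receptors that passed the filter was called by edgeR's quasi-likelihood test, where 15.9% of all genes were called in either direction, and none had an unadjusted p under 0.05. DESeq2 called none either. *Npsr1* averaged 44.7 CPM in the female and 46.7 CPM in the other libraries (log2 difference female minus other -0.11, SE 0.25), and *Galr1* 31.7 and 31.0 CPM (-0.02, SE 0.11). *Npy1r*, from the fit without the filter, had the smallest p of the 10, with 0.468 CPM in the female and 2.18 CPM in the other libraries (-1.83, SE 0.64), which missed the threshold after adjustment (adjusted p = 0.056). A test of whether the differences between subtypes depended on the set of libraries covered 4 receptors in 5 subtypes, and none of the 20 passed (smallest adjusted p = 0.32). The standard errors bound how large a difference could have been seen, and a miss does not show that the levels were equal.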

How the data were processed

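Nuclei of 10 libraries were counted by the authors from 10x Genomics 3' v3 reads, with mm10 and Cell Ranger 6.1.1 named in the submitters' processing notes. The deposited values are raw whole UMI counts of genes in nuclei, and the authors removed nuclei with under 200 genes or over 5% mitochondrial reads and clusters of doublets or low quality. Cell types are the deposited names, and 22 further metadata columns were not used. No doublet caller was run again. Of the barcodes, 46 occurred in more than 1 library (92 nuclei), and leaving them out moved the levels of receptors over 5 CPM by at most 9.27%.

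Neurons with over 1000 genes, then PVT neurons, were grouped with igraph 0.11.9 and scikit-learn 1.9.0 in Python 3.11.15 (with scipy 1.17.1 and numpy 2.4.6), on Pearson residuals (overdispersion 100) of 3000 variable genes, with a Harmony-type library correction, 6 or 18 components, 20 neighbours and Leiden resolution 0.3 or 0.4 (best of 10 starts), without the receptors. Clusters were named by their lead in marker genes, and the first naming rule was replaced after its result was seen, which gave 2 clusters of 1065 and 1055 nuclei the name PVT1. With the receptors kept, 89.0% of PVT nuclei had the same subtype and 87.2% of neurons the same group. MD then fell from 2006 to 924 nuclei, and part of the neurons lay in no named group.

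UMIs were summed per library and class (at least 10 nuclei) and tested in R 4.3.3 with edgeR 4.0.16 (quasi-likelihood test, TMM, filterByExpr, library as block, each class contrasted with the average of the rest, all pairs for neighbours in level), with Benjamini-Hochberg adjustment over all genes per contrast. DESeq2 1.42.0 was an alternative, as were other scaling, filters, groupings and subsets of libraries. An SE is the absolute log2 fold change over the root of the F statistic. Replicate numbers of the titles did not pair female with other libraries (correlations of deviations 0.027, 0.045, -0.097 and 0.015). The test steps were tested on simulated data. Text names all 10 receptors, pathway and ligand genes called in the class where a receptor is highest, ligands of at least 10 CPM, and the 3 genes most like a receptor. The receptors and lists were chosen with earlier results of these data known. Nuclei per library and UMI totals set the precision, and counts of single-digit UMIs carry wide counting error.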

Additional observations from a re-analysis of the deposited data

Results flagged for a closer look

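In 57 groups of 4 or 6 libraries the highest or lowest library was compared with the rest, and 8 stood apart by Dixon's criterion. Chance flags about 1 in 20 groups. In 2 of them the level was well above the detection limit. *Npy1r* in MD neurons was 19.0 CPM in biol rep 2, against 9.30 to 10.6 CPM in the other biol rep libraries. *Gpr83* in PVT4 neurons was 34.2 CPM in biol rep 3, against 15.2 to 18.2 CPM in the others. The female libraries reached like values in both, so that the range of all 10 libraries was not set by these libraries.

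The other 6 were receptors with few UMIs. *Npffr2* in neurons was 1.22 CPM in biol rep 2, against 0.0435 to 0.106 CPM in the other biol rep libraries, and in PVT4 it was 12.7 CPM in the same library and 0 in the other 3. In BSTpr neurons *Npffr2* was 4.02 CPM in female 6 and 0 in the other female libraries. *Avpr1a* was 4.91 CPM in the oligodendrocytes of female 4, against 0 to 1.32 CPM in the others, and 5.26 CPM in the PVT5 neurons of female 3, against 0 to 1.10 CPM. *Npy1r* in PVT5 was 2.21 CPM in female 5 and 0 in the other female libraries.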

How the results depend on the processing

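The counts of receptors called higher in at least 1 class were 1 across cell types, 3 across neuron groups and 4 across PVT subtypes, and they moved mainly with how many receptors passed the filter. Across cell types the count was 10 without the filter, 3 in the biol rep libraries alone and 2 with sums of at least 20 nuclei. Without the filter it was 7 in the biol rep and 8 in the female libraries alone. Across neuron groups it was 9 without the filter, 6 in the biol rep libraries alone and 5 with nuclei assigned by single markers (6 of them without the filter). Without the filter it was 9 in the biol rep libraries, in the female libraries, with the receptors kept in the clustering and without the *Rxfp1*-led cluster (added after the data were seen), and 10 with the authors' clusters. Across PVT subtypes it was 9 without the filter and 2 in the female libraries alone. It was 2 to 4 when 1 library was left out, where 2 of 2 receptors passed the filter without any of the biol rep libraries. Without the filter it was 7 in the biol rep and 5 in the female libraries alone, 9 with the receptors kept and at resolution 0.3, and 8 at resolution 0.5. The other counts with 1 library left out are 1 for cell types and 3 for neuron groups.

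The fit without the replicate block (library) left the counts at 1, 3 and 4, and *Npy1r* lost its calls in Hb (adjusted p = 0.060) and IMD neurons (0.12). With the replicate number as a replicate block, 0 receptors were called between female and other libraries. In 37 of 82 results for single receptors, the call or the lack of one changed in no alternative. The 82 include comparisons not called in the main fit, such as the 6 between female and other libraries. Direction turned for *Galr1* in MD neurons, to -0.68 with the receptors kept in the clustering, -0.081 with single markers and -1.52 without the *Rxfp1*-led cluster. With single markers it also turned for *Npsr1* in MD (0.26), *Gpr83* in Hb (0.055) and IMD (-0.25), *Npy1r* in BSTpr (-0.67) and *Npy5r* in Hb neurons (1.23). The single-marker IMD group held only 33 nuclei in 2 biol rep libraries, with 2 UMIs of *Gpr83*. In the female libraries alone without the filter the direction turned for *Galr1* in astrocytes (1.44) and *Npffr2* in BSTpr neurons (-0.28). The cause was not tested. Leaving out biol rep 3 ended the calls of *Npsr1* in IMD (-0.92) and MD (-0.73) and of *Npy1r* in Hb (-0.90) and IMD neurons (0.72). With 1 library left out the log2 fold change ranged from 3.62 to 4.01 for *Npsr1* in PVT4, 2.47 to 3.21 for *Npsr1* and 1.56 to 1.77 for *Galr1* in PVT neurons, and 1.5 to 1.65 for *Npy1r* in MD neurons, and each call held. Depth limits *Npffr2* and *Avpr1a* (32 and 87 UMIs) and all levels below about 1 CPM.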
